A study of Homo sapiens with 6 samples.

Results

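The aldehyde dehydrogenases described here are 9 genes taken by symbol, ALDH1A1, ALDH1A2, ALDH1A3, ALDH1B1, ALDH2, ALDH3A1, ALDH3A2, ALDH3B1 and ALDH7A1, of 23340 gene names kept in the deposited tables. RNA was sequenced from 3 human cell lines with 2 libraries each: libraries labelled HT-29, a colon adenocarcinoma line given IFN-γ (200 U per ml, 24 hours), libraries labelled MDA-MB-436, a breast adenocarcinoma line with no treatment recorded, and libraries of MCF10A, a mammary epithelial line that does not form tumours, also with no treatment recorded. In each line 1 library was labelled 25M reads and the other was labelled deeper, and for the deeper MCF10A library the labels give both 100M and 50M. Recovered totals ran from 16.7 to 69.5M reads. The labels do not say whether both libraries of a line were grown as separate cultures. The p-values therefore reflect the spread between the sequenced libraries alone, and that spread may be technical. The growth media differed by line, and MCF10A medium alone held hydrocortisone, cholera toxin and insulin, so that line, medium and, for HT-29, IFN-γ cannot be told apart. HT-29 cells without IFN-γ were not analysed here.

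The markers went against 2 of the 3 labels. KRT20, an intestinal keratin, had 1 read in the HT-29-labelled libraries and 64661 reads in those labelled MDA-MB-436. VIL1, which encodes villin of the intestinal brush border, had 0 reads in the HT-29-labelled libraries, against 4566 in those labelled MDA-MB-436. VIM, the mesenchymal filament vimentin, averaged 35933 ± 942 normalised counts in the HT-29-labelled libraries and 11.9 ± 6.42 in those labelled MDA-MB-436 (SD, n = 2 libraries, as throughout). VIM was also high in MCF10A, at 26074 ± 244, so it sets apart only the libraries labelled MDA-MB-436. IRF1, induced by IFN-γ, averaged 2214 ± 28.3 in the HT-29-labelled libraries and 79539 ± 138 in those labelled MDA-MB-436, and 404 ± 14.6 in MCF10A. The basal markers KRT5 and TP63 averaged 420143 ± 5598 and 2908 ± 103 in MCF10A. The groups were left as the labels give them, so each direction given refers to a label and not to a verified line. The IFN-γ treatment is likewise that of the label. Whether the HT-29 and MDA-MB-436 labels were exchanged was not tested.

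Aldehyde dehydrogenases use NAD+ or NADP+ to oxidise aldehydes to carboxylic acids. The ALDH1A enzymes turn retinaldehyde into retinoic acid, the ligand of the nuclear retinoic acid receptors. The mitochondrial enzymes ALDH2 and ALDH1B1 clear acetaldehyde, the ALDH3 enzymes act on medium- and long-chain or aromatic aldehydes, and ALDH7A1 works in lysine breakdown. High aldehyde dehydrogenase activity is widely used to mark stem-like cells in breast and colon epithelium, with ALDH1A1 and ALDH1A3 as main contributors.

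ALDH1A1 and ALDH1A3 are shown as promoter sequences because they make the same product and moved in opposite directions between the HT-29-labelled libraries and those labelled MDA-MB-436. Each window runs 5′ to 3′ on the gene's strand, 250 bases before to 50 after the transcription start, from RefSeq on GRCh38.p14, whereas the submitters' processing notes name hg19. Capitals mark CpG dinucleotides. The ALDH1A1 window lies at chr9:72953004-72953303 on the minus strand and the ALDH1A3 window at chr15:100879581-100879880 on the plus strand.
ALDH1A1: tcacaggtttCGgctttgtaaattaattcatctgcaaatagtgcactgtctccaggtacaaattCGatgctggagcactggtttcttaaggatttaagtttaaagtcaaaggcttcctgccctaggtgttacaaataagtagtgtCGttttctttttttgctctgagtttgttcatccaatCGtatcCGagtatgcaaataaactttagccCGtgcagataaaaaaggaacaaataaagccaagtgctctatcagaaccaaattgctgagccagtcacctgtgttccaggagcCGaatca
ALDH1A3: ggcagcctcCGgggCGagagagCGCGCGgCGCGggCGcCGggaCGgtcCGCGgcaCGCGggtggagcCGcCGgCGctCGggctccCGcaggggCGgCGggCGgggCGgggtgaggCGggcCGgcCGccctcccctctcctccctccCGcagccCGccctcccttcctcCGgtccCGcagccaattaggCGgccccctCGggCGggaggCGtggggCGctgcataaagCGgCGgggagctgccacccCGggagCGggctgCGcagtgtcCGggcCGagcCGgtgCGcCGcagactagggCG

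The ALDH1A1 window held 7 CpG dinucleotides and 40.3% G and C. The ALDH1A3 window held 46 CpG dinucleotides and 81.7% G and C. The median over 35116 promoter windows of the same length was 14 CpG dinucleotides and 58.7% G and C, which is above the ALDH1A1 window and below the ALDH1A3 window on both measures. For CpG dinucleotides the ALDH1A1 window stood at percentile 36.8 and the ALDH1A3 window at percentile 97.1 of all windows, and for G and C at percentiles 11.8 and 98.6. Both windows held 1 CCAAT box (CCAAT, found in 34.6% of all windows). The GC box (GGGCGG, found in 45.0%) occurred 6 times in the ALDH1A3 window and 0 times in the ALDH1A1 window. All motifs were searched on both strands with overlaps allowed. The TATA box (TATAAA, found in 11.5%), the antioxidant response element core (TGACNNNGC, found in 13.3%) and the gamma-activated site (TTCNNNGAA, found in 7.66%) had 0 matches in either window. The E-box (CACCTG, found in 20.6%) had 1 match in the ALDH1A1 window and 0 in the ALDH1A3 window. The table held windows for 7 of the 9 genes, 10 windows in all, with ALDH2 and ALDH3A1 not among them.

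Among these 9 genes, each line had its own leading gene. Other aldehyde dehydrogenase genes were not ranked with them. Levels of different genes are set side by side as the authors' deposited RPKM, reads scaled to gene length and to library depth, whose rows for these 9 genes were in register. Summed over the 9 genes, RPKM was 309 and 313 in the HT-29-labelled libraries, 190.3 and 190.9 in those labelled MDA-MB-436, and 133.7 and 133.9 in MCF10A. In the HT-29-labelled libraries, ALDH1A3 alone made up 69.2% and 69.3% of that sum. In those labelled MDA-MB-436, ALDH2 made up 36.1% and ALDH1A1 28.6% and 28.8%. In MCF10A, ALDH3A2 made up 29.9% and 30.2% and ALDH1B1 21.4% and 21.7%. These are shares of RNA, not of enzyme activity, and in bulk RNA fewer cells expressing a gene and less RNA per cell cannot be told apart. RPKM and normalised counts scale the libraries differently, so the sums between lines, unlike the shares, depend on the scaling. ALDH1B1 averaged 32.9 RPKM in the HT-29-labelled libraries and 28.8 in MCF10A, but 2782 and 3024 normalised counts.

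**Figure D1:**
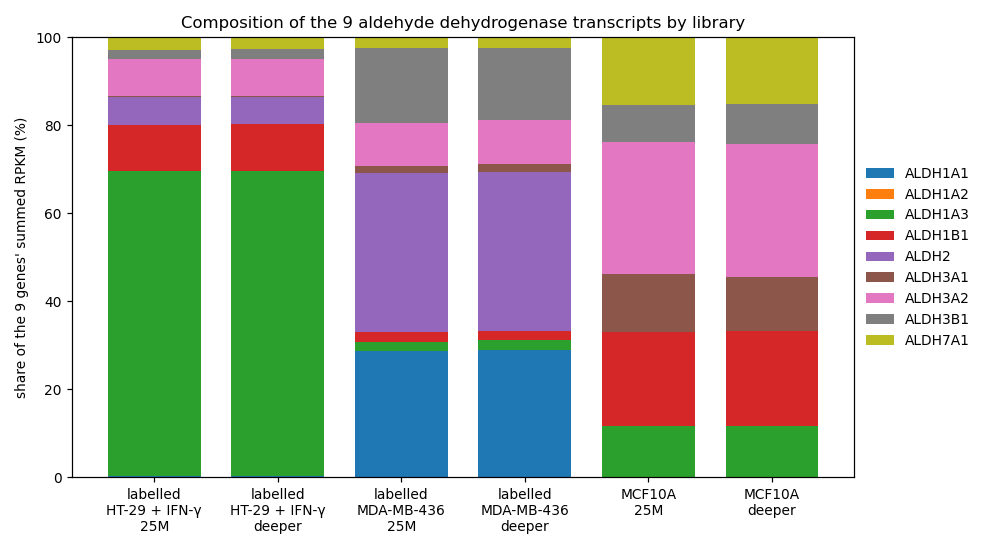
Share of the summed RPKM (y axis, percent) of 9 aldehyde dehydrogenase genes in each of 6 libraries (x axis, 25M and deeper library of each label); each colour is 1 gene and each bar adds up to 100%. ALDH1A3 fills 69.2% and 69.3% of the bars labelled HT-29, ALDH2 and ALDH1A1 lead in those labelled MDA-MB-436, and ALDH3A2 and ALDH1B1 lead in MCF10A.

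By mean RPKM the order in the HT-29-labelled libraries was ALDH1A3 (215 ± 1.60), ALDH1B1 (32.9 ± 0.193), ALDH3A2 (26.2 ± 0.0340), ALDH2 (19.5 ± 0.541), ALDH7A1 (8.79 ± 0.255), ALDH3B1 (6.51 ± 0.196), ALDH1A1 (0.964 ± 0.0360), ALDH3A1 (0.776 ± 0.0990) and ALDH1A2 (0.0912 ± 0.00130). Each gene in that order lay above the next in both libraries. In the MDA-MB-436-labelled libraries the mean RPKM was highest for ALDH2 (68.8 ± 0.203), then ALDH1A1 (54.8 ± 0.365), ALDH3B1 (31.8 ± 0.689) and ALDH3A2 (19.0 ± 0.251). ALDH7A1 (4.66 ± 0.162), ALDH1B1 (4.26 ± 0.172), ALDH1A3 (4.24 ± 0.285) and ALDH3A1 (3.19 ± 0.351) followed, and the libraries of ALDH1B1 and ALDH1A3 overlapped. In MCF10A the mean RPKM ran from ALDH3A2 (40.2 ± 0.267) through ALDH1B1 (28.8 ± 0.267), ALDH7A1 (20.5 ± 0.252), ALDH3A1 (17.1 ± 1.06) and ALDH1A3 (15.4 ± 0.0263) to ALDH3B1 (11.7 ± 0.644). ALDH1A1, ALDH1A2 and ALDH2 were each at most 0.0464 RPKM in both MCF10A libraries, and their order there overlapped.

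ALDH1A1, the main cytosolic retinaldehyde dehydrogenase, was the gene of the 3 retinaldehyde enzymes that stood highest in the MDA-MB-436-labelled libraries. Its normalised counts were 64.5 and 60.7 in the HT-29-labelled libraries, 4420 and 4503 in those labelled MDA-MB-436, and 1.87 and 3.44 in MCF10A, giving the 25M library first. The 3 lines did not overlap, which held for 8 of the 9 genes and for 78.3% of all genes tested. In pooled reads ALDH1A1 was 1441-fold higher in the MDA-MB-436-labelled libraries than in MCF10A, with a 95% counting interval of 731 to 3338.5. The wide interval comes from the 8 reads of ALDH1A1 in MCF10A. The difference on the log2(normalised count + 1) scale was 10.29 (SE 0.209, adjusted p = 2.70e-09) there, and 4.15 (SE 0.209, adjusted p = 4.84e-07) for the HT-29-labelled libraries against MCF10A. With a pseudocount of 5 these were 9.20 and 3.15, so the size of both depends on the pseudocount. Between the HT-29-labelled libraries and those labelled MDA-MB-436 it was -6.13 (SE 0.209, adjusted p = 4.00e-08), and the HT-29-labelled libraries were 72.6-fold lower in pooled reads (interval 61.9 to 85.7). The fit pools the spread of all 3 lines, so this SE also holds that of the 1.87 and 3.44 in MCF10A.

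ALDH1A3, which makes retinoic acid in development and is the leading source of aldehyde dehydrogenase activity in many breast cancer lines, had the reverse order in the 2 labelled cancer lines. Its normalised counts were 20862 and 20491 in the HT-29-labelled libraries, 484 and 537 in those labelled MDA-MB-436, and 1833 and 1832 in MCF10A. The libraries labelled HT-29 lay above all others, and MCF10A lay between. The log2 difference was 3.50 (SE 0.0487, adjusted p = 8.45e-10) for the HT-29-labelled libraries against MCF10A and 5.34 (SE 0.0487, adjusted p = 8.55e-11) against those labelled MDA-MB-436. Pooled reads were 39.2-fold higher in the HT-29-labelled libraries than in those labelled MDA-MB-436 (interval 37.0 to 41.7). ALDH1A3 fell by 1.84 on the log2 scale in the MDA-MB-436-labelled libraries against MCF10A (SE 0.0487, adjusted p = 1.02e-08). In GENCODE release 29, 25.4% of the 50-base words of the coding ALDH1A3 transcripts are shared with transcripts of other genes, nearly all with an antisense gene on the opposite strand that has no row in the tables. Without a stated strand setting, reads of that gene cannot be told apart from those of ALDH1A3.

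ALDH1A2, the retinaldehyde dehydrogenase of the early embryo, was near 0 throughout and did not pass the filter of 10 normalised counts in 2 libraries, though it was tested with no filter or other scalings, where it was called higher in the libraries labelled HT-29 than in those labelled MDA-MB-436. It had 22 reads in the HT-29-labelled libraries, 3 in those labelled MDA-MB-436 and 4 in MCF10A, at normalised counts of 9.0 and 8.75 in the HT-29-labelled libraries, 0 and 1.85 in those labelled MDA-MB-436, and 5.62 and 0.491 in MCF10A. The libraries labelled HT-29 lay above the rest, and the other two groups overlapped. Exons of AQP9, a water and glycerol channel on the opposite strand, overlap ALDH1A2, and AQP9 averaged 255 ± 6.69 normalised counts in the HT-29-labelled libraries, 1.03 ± 1.46 in those labelled MDA-MB-436 and 9.35 ± 0.0245 in MCF10A. The part of AQP9 reads in the ALDH1A2 values was not tested.

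**Figure D2:**
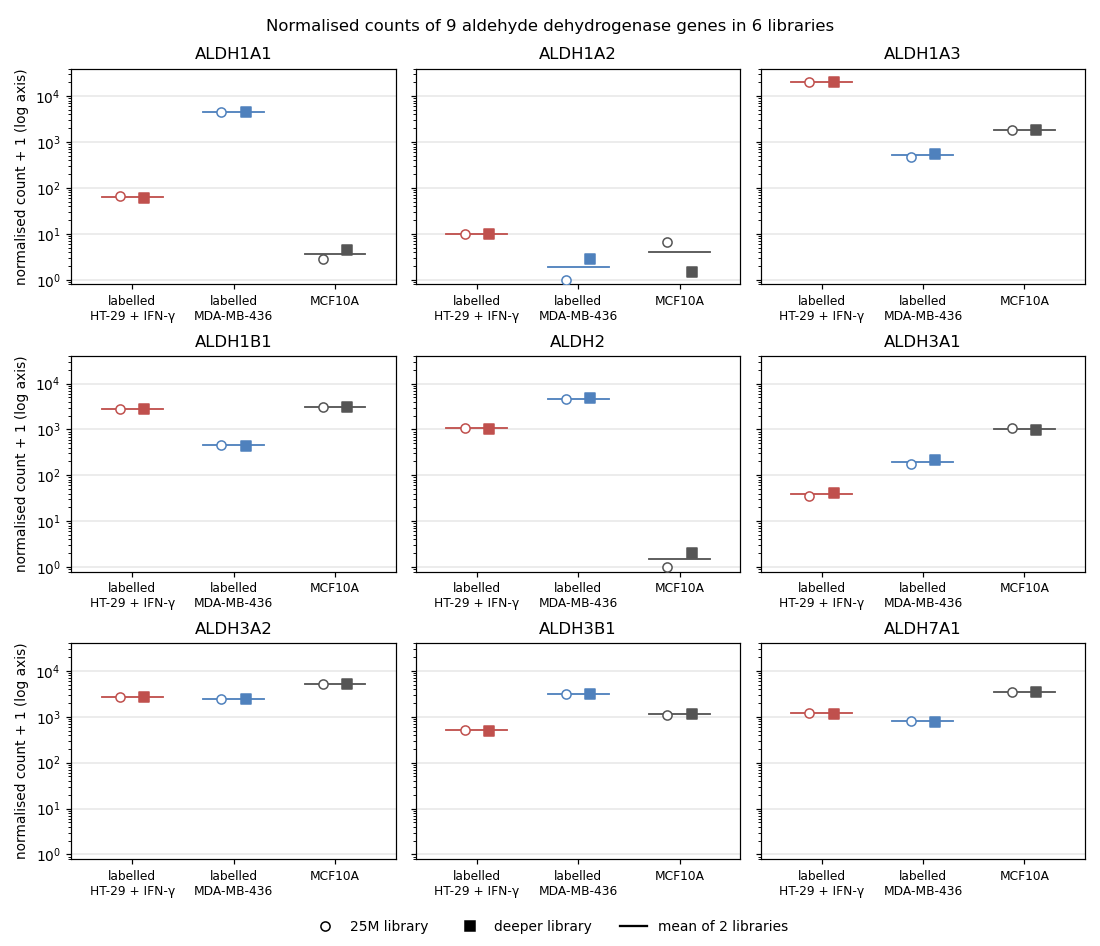
Normalised counts plus 1 (y axis, log scale) of 9 aldehyde dehydrogenase genes, 1 panel each, in the HT-29-labelled libraries (IFN-γ), those labelled MDA-MB-436 and MCF10A (x axis); open circles are 25M libraries, filled squares deeper libraries and lines the mean of 2 libraries. The paired libraries lie close together except near 0, where ALDH2 had 0 and 2 reads in MCF10A, and the 3 lines separate for 8 of the 9 genes, where 78.3% of all 15638 genes tested separate in the same way.

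ALDH2, the mitochondrial enzyme that clears acetaldehyde after ethanol and protects against lipid aldehydes, was nearly absent from MCF10A. Its normalised counts were 1088 and 1038 in the HT-29-labelled libraries, 4671 and 4734 in those labelled MDA-MB-436, and 0 and 0.982 in MCF10A. MCF10A thus stood apart from both cancer lines, with 2 ALDH2 reads among 87.6M, against 2622 reads in the HT-29-labelled libraries and 9955 in those labelled MDA-MB-436. The ratio of pooled ALDH2 reads was 6066 (interval 1679 to 50099.8) for the MDA-MB-436-labelled libraries over MCF10A and 1351 (interval 374 to 11164) for those labelled HT-29 over MCF10A. The log2 differences from MCF10A were 11.71 (SE 0.275, adjusted p = 5.42e-09) for those labelled MDA-MB-436 and 9.56 (SE 0.275, adjusted p = 2.27e-08) for those labelled HT-29, and their size depends on the pseudocount of 1. Of the ALDH2 words of 50 bases, 9.71% are shared with other genes, most of them with an overlapping gene on the same strand. Between the cancer lines ALDH2 fell by 2.14 on the log2 scale in the HT-29-labelled libraries (SE 0.275, adjusted p = 1.29e-04). The fit pools the spread of all lines. That SE therefore also holds the spread of the 0 and 0.982 in MCF10A, a line outside this comparison.

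ALDH1B1, the mitochondrial relative of ALDH2 that is used as a marker of colon crypts and colon cancer, was low in the libraries that carried the intestinal markers. ALDH1B1 had normalised counts of 2804 and 2759.9 in the HT-29-labelled libraries, 463 and 442 in those labelled MDA-MB-436, and 3009 and 3039 in MCF10A. The libraries labelled MDA-MB-436 lay below all others. ALDH1B1 fell by 2.74 on the log2 scale there against MCF10A (SE 0.0388, adjusted p = 4.90e-10), and was higher by 2.62 in the HT-29-labelled libraries than in those labelled MDA-MB-436 (SE 0.0388, adjusted p = 6.01e-10). For the HT-29-labelled libraries against MCF10A the log2 difference was -0.12 (SE 0.0388, adjusted p = 0.0198), under the fold threshold of 1 used for a call, and it was 0.19 with scaling by library size alone.

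Among the ALDH3 genes, ALDH3A1, a corneal and stomach enzyme inducible by aryl hydrocarbons, was highest in MCF10A. Its normalised counts were 34.5 and 41.0 in the HT-29-labelled libraries, 179 and 211 in those labelled MDA-MB-436, and 1079 and 985 in MCF10A. The 3 lines did not overlap. ALDH3A1 fell by 2.40 on the log2 scale in the MDA-MB-436-labelled libraries (SE 0.132, adjusted p = 6.83e-07) and fell by 4.74 in those labelled HT-29 (SE 0.132, adjusted p = 1.92e-08), both against MCF10A. It fell by 2.34 in the HT-29-labelled libraries against those labelled MDA-MB-436 (SE 0.132, adjusted p = 7.61e-07).

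ALDH3A2, the fatty aldehyde dehydrogenase of the endoplasmic reticulum that is mutated in Sjögren-Larsson syndrome, varied least between lines among the 8 members tested. ALDH3A2 had normalised counts of 2712 and 2697 in the HT-29-labelled libraries, 2425 and 2494 in those labelled MDA-MB-436, and 5135 and 5166 in MCF10A. The lines did not overlap, but the cancer lines were close. The log2 difference was -1.07 (SE 0.0286, adjusted p = 1.10e-08) for the MDA-MB-436-labelled libraries against MCF10A, just past the fold threshold. It was -0.93 (SE 0.0286, adjusted p = 3.23e-08) for those labelled HT-29 against MCF10A, just short of it, and was past it with TMM scaling, at -1.06, and with edgeR, at -1.02. Between the labelled cancer lines it was 0.14 (SE 0.0286, adjusted p = 0.00226).

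ALDH3B1, which oxidises lipid-derived aldehydes at membranes, went the other way from ALDH3A1 between the MDA-MB-436-labelled libraries and MCF10A. ALDH3B1 had normalised counts of 516 and 491 in the HT-29-labelled libraries, 3117 and 3051 in those labelled MDA-MB-436, and 1082 and 1166 in MCF10A. The libraries labelled MDA-MB-436 were highest and those labelled HT-29 lowest, with no overlap. ALDH3B1 was higher by 1.46 on the log2 scale in the MDA-MB-436-labelled libraries than in MCF10A (SE 0.0509, adjusted p = 4.71e-08). It fell by 1.16 in the HT-29-labelled libraries against MCF10A (SE 0.0509, adjusted p = 2.23e-07), a difference of -0.85 and under the fold threshold with scaling by library size alone, and fell by 2.61 against those labelled MDA-MB-436 (SE 0.0509, adjusted p = 2.10e-09). Of its 3526 different 50-base words, 72 are shared with other genes, among them the neighbouring paralog ALDH3B2.

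ALDH7A1, called antiquitin and mutated in pyridoxine-dependent epilepsy, was highest in MCF10A. ALDH7A1 had normalised counts of 1221 and 1163 in the HT-29-labelled libraries, 809 and 777 in those labelled MDA-MB-436, and 3487 and 3416 in MCF10A. Both cancer lines lay below MCF10A. The gene fell by 2.12 on the log2 scale in the MDA-MB-436-labelled libraries (SE 0.0424, adjusted p = 2.48e-09) and fell by 1.53 in those labelled HT-29 (SE 0.0424, adjusted p = 1.87e-08). The difference of 0.59 between the HT-29-labelled libraries and those labelled MDA-MB-436 (SE 0.0424, adjusted p = 3.54e-06) was under the fold threshold. A pseudogene, ALDH7A1P1, shares 5.49% of its words of 50 bases.

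Set against the whole table, many genes differed between these unlike lines, so the calls of the aldehyde dehydrogenases stand beside a high background. A gene was called at a Benjamini-Hochberg adjusted p below 0.05 by limma over 15638 genes tested and a log2 fold change of at least 1 in either direction. ALDH1A2 was not tested, and ALDH1A1 and ALDH2 passed the filter through the lines labelled as cancers, and a gene that passes that way is bound to differ. For the MDA-MB-436-labelled libraries against MCF10A, 8 of the 8 genes tested were called, 3 higher and 5 lower, where 49.2% of all genes were called (25.6% higher and 23.7% lower). For those labelled HT-29 against MCF10A, 6 of 8 were called, 3 higher and 3 lower, against 46.5% of all genes (28.4% higher and 18.1% lower). For the HT-29-labelled libraries against those labelled MDA-MB-436, 6 of 8 were called, 2 higher and 4 lower, against 53.4% (29.9% higher and 23.5% lower). The median absolute log2 difference of the 8 tested genes was 2.26, 2.51 and 2.48 in these comparisons, against 0.996, 0.917 and 1.11 over all genes tested. These counts and medians include ALDH1A1 and ALDH2, so no contrast with all genes is drawn from them. The comparisons share libraries and are therefore not independent.

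Over all genes, 4442 were higher and 2823 lower in the HT-29-labelled libraries than in MCF10A, and 5545 and 2004 with scaling by library size alone. Against those labelled MDA-MB-436 the counts were 4675 higher and 3675 lower, and 5776 and 2839 with that scaling. The median log2 difference of all genes was 0.13 and 0.09 in these comparisons and 0.45 and 0.43 with scaling by library size alone. Values of the HT-29-labelled libraries therefore carry a shift of about that size that depends on the scaling, which is small beside those of ALDH1A1, ALDH1A3, ALDH2 and ALDH3A1.

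**Figure D3:**
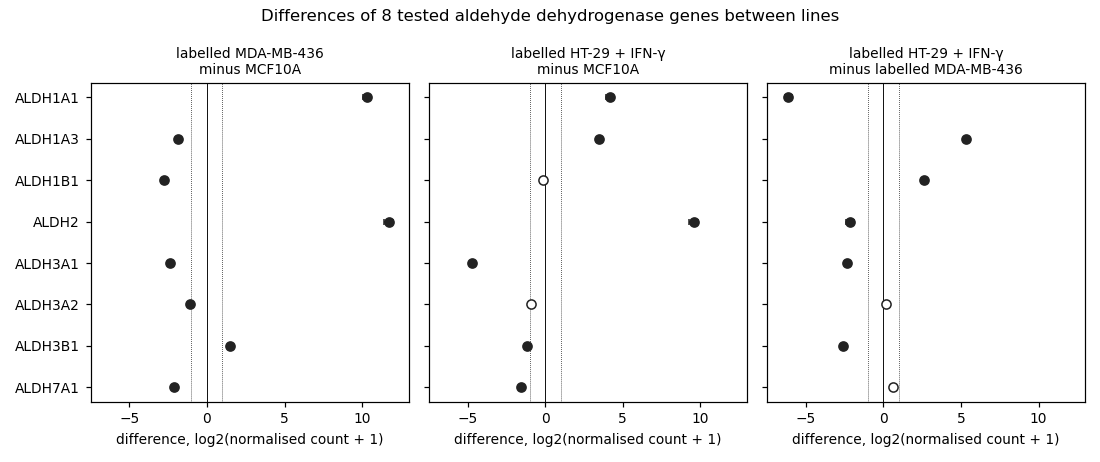
Difference in log2(normalised count + 1) (x axis) with SE bars for the 8 aldehyde dehydrogenase genes tested (y axis) in 3 comparisons; filled points passed an adjusted p of 0.05 and the fold threshold marked by dotted lines, and open points did not. ALDH1A1 and ALDH1A3 lie on opposite sides of 0 in the panel of the HT-29-labelled libraries against those labelled MDA-MB-436, at -6.13 and 5.34.

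Of 10 other aldehyde dehydrogenase genes, 9 were tested. In the MDA-MB-436-labelled libraries against MCF10A, 2 were higher and 2 lower, in those labelled HT-29 against MCF10A 1 was higher and 5 lower, and in those labelled HT-29 against those labelled MDA-MB-436 2 were higher and 3 lower. Those were 4, 6 and 5 of the 9 genes, where 49.2%, 46.5% and 53.4% of all genes were called. With 9 genes, no difference from those shares is read. Leaving out either library labelled MDA-MB-436 left 8 genes tested and 1 higher there than in MCF10A. The largest difference was that of ALDH1L2, the mitochondrial formyltetrahydrofolate dehydrogenase, with normalised counts of 418 ± 12.9 in the HT-29-labelled libraries, 3.60 ± 0.734 in those labelled MDA-MB-436 and 3051 ± 15.7 in MCF10A. It was lower in the MDA-MB-436-labelled libraries than in MCF10A (log2 difference -9.38, SE 0.129, adjusted p = 4.24e-10). ALDH5A1, the succinate semialdehyde dehydrogenase of GABA breakdown, was higher than in MCF10A in the MDA-MB-436-labelled libraries (2.25, SE 0.127, adjusted p = 7.88e-07) and in those labelled HT-29 (1.45, SE 0.127, adjusted p = 1.34e-05). ALDH3B2 had 0 reads in the HT-29-labelled libraries, against 96 in those labelled MDA-MB-436 and 120 in MCF10A, and was at least 38.8-fold lower than in MCF10A with 3 reads over the group as the floor. ALDH9A1, which acts in carnitine and GABA synthesis, was lower in the MDA-MB-436-labelled libraries than in MCF10A (-1.24, SE 0.0314, adjusted p = 7.98e-09). ALDH4A1 of proline breakdown was lower in the HT-29-labelled libraries than in those labelled MDA-MB-436 (-2.77, SE 0.0855, adjusted p = 2.29e-08). The median log2 difference of the 9 genes was -0.25, -1.08 and -0.80 in the 3 comparisons, against 0, 0.13 and 0.09 over all genes tested.

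Of 26 genes of retinol transport, retinaldehyde formation, retinoic acid breakdown, receptors and targets around the ALDH1A enzymes, 24 were tested. In the 3 comparisons 18, 16 and 22 of them were called, where 49.2%, 46.5% and 53.4% of all genes were. Some passed the filter through a single line and were bound to differ. No contrast with all genes is therefore drawn from the counts and medians of this list. In the MDA-MB-436-labelled libraries against MCF10A, 14 were higher and 4 lower, with a median log2 difference of 1.37, against 0 over all genes. In those labelled HT-29 against MCF10A, 12 were higher and 4 lower, with a median of 0.995, against 0.13. In those labelled HT-29 against those labelled MDA-MB-436, 8 were higher and 14 lower, with a median of -1.63, against 0.09. With the 25M or the deeper library labelled MDA-MB-436 left out, 21 were tested and 11 or 12 were higher there than in MCF10A. With either library labelled HT-29 left out, 20 of these genes passed the filter, and 6 or 7 were higher than in MCF10A and 4 higher than in those labelled MDA-MB-436. Of the genes lower than in MCF10A, 2 in place of 4 were called with scaling by library size for the HT-29-labelled libraries, and 2 in place of 4 with a pseudocount of 5 or with either library labelled HT-29 left out for those labelled MDA-MB-436.

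Upstream of the ALDH1A enzymes, STRA6, the cell-surface importer of retinol, averaged 2151 ± 132 normalised counts in the HT-29-labelled libraries, 306 ± 4.21 in those labelled MDA-MB-436 and 25.0 ± 6.26 in MCF10A. It was higher in the HT-29-labelled libraries than in MCF10A by 6.39 on the log2 scale (SE 0.156, adjusted p = 1.02e-08). LRAT, which stores retinol as esters, had 0 reads in the MDA-MB-436-labelled libraries and averaged 75.7 ± 3.31 in those labelled HT-29 and 236 ± 32.0 in MCF10A. Thus the line with the highest ALDH1A3 also had the highest STRA6, and the line with the highest ALDH1A1 had 0 LRAT reads.

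CYP26B1, which breaks down retinoic acid, averaged 1781 ± 16.9 normalised counts in the HT-29-labelled libraries, 11.0 ± 0.996 in those labelled MDA-MB-436 and 492 ± 29.9 in MCF10A, the same order of lines as ALDH1A3. It fell by 5.36 on the log2 scale in the MDA-MB-436-labelled libraries against MCF10A (SE 0.103, adjusted p = 1.97e-09). Among the receptors, RARB had 1064 reads in the HT-29-labelled libraries, 1 in those labelled MDA-MB-436 and 11 in MCF10A. RXRG averaged 229 ± 40.8 normalised counts in the HT-29-labelled libraries, with 0 reads in those labelled MDA-MB-436 and 1 in MCF10A. RARG was lower in the HT-29-labelled libraries than in MCF10A (log2 difference -2.32, SE 0.0365, adjusted p = 1.48e-09).

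RARRES3 and TGM2, induced by retinoic acid and also by interferon, were highest in the MDA-MB-436-labelled libraries. STRA6, CYP26B1, RARB and RXRG, given above, were highest in those labelled HT-29 instead. RARRES3 averaged 447 ± 32.2 normalised counts in the HT-29-labelled libraries, 13256 ± 336 in those labelled MDA-MB-436 and 9.79 ± 2.04 in MCF10A. TGM2, a transglutaminase, averaged 639.9 ± 13.6 in the HT-29-labelled libraries, 51294 ± 336 in those labelled MDA-MB-436 and 97.2 ± 2.83 in MCF10A. The interferon marker GBP1 moved with them, at 1741 ± 10.4 in the HT-29-labelled libraries, 63137 ± 648 in those labelled MDA-MB-436 and 90.4 ± 0.667 in MCF10A. The part of retinoic acid or of interferon in these values was not tested.

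**Figure D4:**
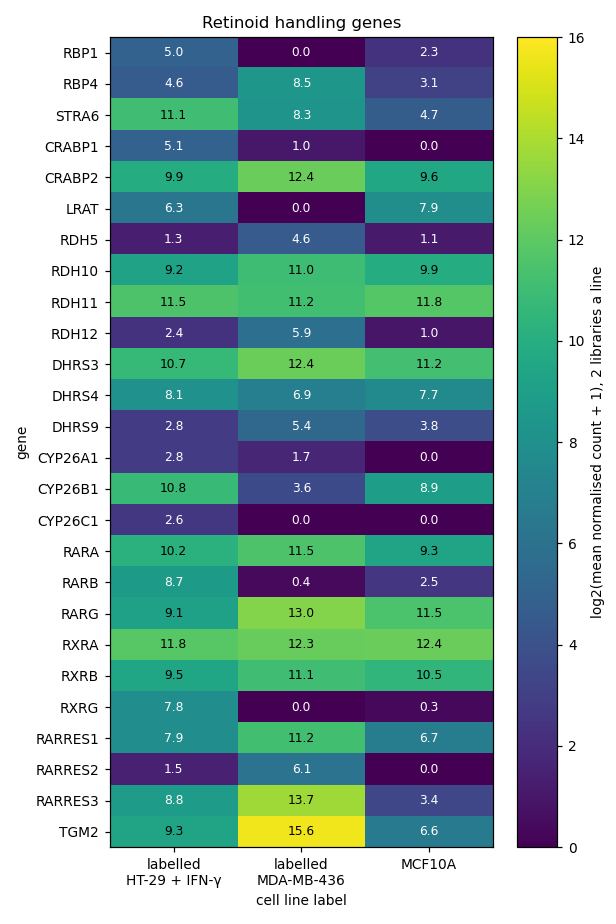
Levels of 26 retinoid handling genes (y axis) as log2(mean normalised count + 1) over the 2 libraries of each cell line label (x axis), printed in each cell and shown by colour. STRA6, CYP26B1, RARB and RXRG are highest in the HT-29-labelled libraries, and RARRES3 and TGM2 in those labelled MDA-MB-436.

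Genes with the profile nearest to a member were sought among all genes tested outside the 9, by the Euclidean distance between log2 profiles over 6 libraries, each centred on its own mean. Since 3 lines make up these libraries, a small distance says little more than that the lines stand in the same proportions. Where a gene is near 0, the pseudocount of 1 sets its profile there, and the proportions need not be the same. Nearest to ALDH1A1 were RGL3 (distance 0.527), LAMP3 (0.979) and KLHDC7B (0.997). Nearest to ALDH1A3 were CLU (0.342), GNG2 (0.363) and ZRANB2-AS2 (0.371), of which the last is an antisense gene counted with unknown strand. Nearest to ALDH3A1 were TFAP2A (0.389), PVRL1 (0.421) and DSP (0.651). GNG2 and ZRANB2-AS2 averaged 46.5 and 31.6 normalised counts in the HT-29-labelled libraries and 0 in those labelled MDA-MB-436. In MCF10A, RGL3 and KLHDC7B each averaged 0.245 and LAMP3 2.16. CLU, which encodes clusterin, averaged 5141 normalised counts in the HT-29-labelled libraries, 107 in those labelled MDA-MB-436 and 372 in MCF10A. DSP, the desmosome protein desmoplakin, averaged 1650.1 in the HT-29-labelled libraries, 10736 in those labelled MDA-MB-436 and 37753 in MCF10A.

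The libraries of a line agreed well for these genes. Over 22 pairs of a member and a line with at least 10 reads in both libraries, the ratio of the deeper to the 25M library ran from 0.913 to 1.19. The median difference was 3.38%, and 19 of the 22 pairs differed by less than 10%. The lowest and the highest ratio were those of ALDH3A1 in MCF10A and in the HT-29-labelled libraries.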

How the data were processed

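RNA was sequenced from 3 cell lines with 2 libraries each. The submitters' processing notes name FastQC, STAR 2.2.0, HTSeq and hg19. How these were set, the annotation, the strand setting and the normalisation method are not stated there. Per the file headers, the authors deposited a normalised count and an RPKM value for 23368 rows. Each deposited normalised count is a signal equal to a read number times a factor shared by its library. With a tolerance of 0.001, 100% of nonzero values divided into whole reads, which were recovered. The deposited RPKM column was out of register for part of the rows. Of 13043 genes above 0 in all libraries, 14.7% had a ratio of normalised count to RPKM that varied by over 1% between libraries after 1 factor per library. The 9 members were not among them, so RPKM was used to compare levels between these genes. The 28 names that read as dates were left out.

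Groups followed the cell line labels. limma 3.58.1 (R 4.3.3), with a trended and robust prior, was fitted to log2(normalised count + 1) of all 6 libraries, for genes with at least 10 in at least 2 libraries, with 3 residual degrees of freedom. Fold changes on this scale understate the change of low genes. Ratios of pooled reads carry exact 95% binomial intervals that, like floors of 3 reads, cover counting error only. edgeR 4.0.16 and DESeq2 1.42.0 on recovered reads, other scalings, filters and pseudocounts and left-out libraries were alternatives. On simulated counts the fit was tested first. The members, gene lists and tests were chosen with earlier results of these data known. Genes named are the 9 members, up to 2 called genes per list, direction and comparison, the 3 nearest profiles, and the label markers. AQP9 and ADH5 were named after their values were seen. Sequence words of 50 bases came from GENCODE release 29.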

Additional observations from a re-analysis of the deposited data

How the results depend on the processing

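Over 15 alternatives, the counts of members called against MCF10A in the libraries labelled MDA-MB-436 did not change. For the libraries labelled HT-29 against MCF10A the 3 lower calls were 2 with scaling by library size and 4 with TMM scaling or edgeR, and against those labelled MDA-MB-436 the 2 higher calls were 3 with no filter, scaling by library size or TMM scaling, where ALDH1A2 was tested too. Among 360 values of single genes, 1 reversed and 3 crossed the threshold. With scaling by library size alone, ALDH1B1 in the HT-29-labelled libraries against MCF10A was 0.19 (adjusted p = 0.00276), and ALDH3B1 was -0.85 and under the fold threshold. ALDH3A2 in that comparison was past it at -1.06 with TMM scaling and -1.02 with edgeR. Leaving out 1 library ended no member call, but the lone library left in a line is then assumed to vary like those of the other lines, so these fits say little about its spread. The size of the ALDH2 difference ran from 9.75 to 12.57 over the alternatives for the MDA-MB-436-labelled libraries against MCF10A, with 2 reads in MCF10A. ALDH1A2 was then higher by 2.55 (adjusted p = 0.0176), 2.93 (adjusted p = 0.0108) and 2.64 (adjusted p = 0.0119) in the libraries labelled HT-29, on 22 reads against 3. The labels pair no libraries beyond the read depth. The differences between the 25M and the deeper library correlated between lines at -0.003 to 0.028 over 15638 genes, so depth was not treated as a pairing. With depth as a replicate block, 7715, 7271 and 8360 genes were called, against 7701, 7265 and 8350 without it, and the calls of the 8 genes were the same.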

Other observations

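Alcohol dehydrogenases, which supply aldehydes to the enzymes above, were mostly at or near 0. Of 8 genes, 3 were tested, and 2 when either MCF10A library was left out. ADH5, the formaldehyde-clearing class III enzyme, had normalised counts of 3301 ± 66.8 in the HT-29-labelled libraries, 3387 ± 115 in those labelled MDA-MB-436 and 4714 ± 33.2 in MCF10A, and did not reach the fold threshold in any comparison. ADHFE1, a mitochondrial hydroxyacid dehydrogenase, was higher in the HT-29-labelled libraries (175 ± 3.29) than in those labelled MDA-MB-436 (0.924 ± 1.31), with a log2 difference of 6.70 (SE 0.580, adjusted p = 1.11e-05). ADHFE1 passed the filter through the HT-29-labelled libraries. A gene that passes that way is bound to differ, so no weight is put on that p-value. ADH1B had 0 reads in the HT-29-labelled libraries and in those labelled MDA-MB-436, against 51 in MCF10A.

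Of 12 aldo-keto reductases, which reduce aldehydes rather than oxidise them, 11 were tested, with 3 higher and 4 lower in the MDA-MB-436-labelled libraries than in MCF10A and 4 higher and 3 lower in those labelled HT-29. Between the HT-29-labelled libraries and those labelled MDA-MB-436, 3 were higher and 5 lower. Those were 7, 7 and 8 of 11, where 49.2%, 46.5% and 53.4% of all genes were called. AKR7A3 and AKR1C4 passed the filter through the MDA-MB-436-labelled libraries alone, and AKR1B15 through those labelled HT-29 alone. Such genes are bound to differ, so no difference from those shares is read. Leaving out either library labelled MDA-MB-436 left 9 tested and 1 higher there than in MCF10A, and without the deeper one 3 in place of 5 were lower between the cancer lines. AKR1B1, the aldose reductase, averaged 22893 ± 737 normalised counts in the HT-29-labelled libraries, 6.27 ± 2.77 in those labelled MDA-MB-436 and 7858 ± 14.6 in MCF10A. It was lower in the MDA-MB-436-labelled libraries than in MCF10A by a log2 difference of -10.13 (SE 0.252, adjusted p = 4.24e-07). AKR7A3 averaged 6.08 ± 2.23 in the HT-29-labelled libraries, 548 ± 18.7 in those labelled MDA-MB-436 and 1.18 ± 0.977 in MCF10A. AKR1C2 averaged 13.6 ± 0.126 in the HT-29-labelled libraries, 27.9 ± 1.55 in those labelled MDA-MB-436 and 1582 ± 44.1 in MCF10A, and its reads are uncertain, as AKR1C1, AKR1C2 and AKR1C3 are close copies.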
